A study of Homo sapiens and Mus musculus with 12 samples.

Results

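The clusters of nuclear tRNA genes were examined in 3 CUT&RUN peak lists from pancreatic ductal adenocarcinoma cells. The members are the peaks whose midpoint lies in 9 windows, 7 on hg19 and 2 on mm10, given as large tRNA gene clusters of the human and mouse genomes. The tRNA content of the windows was not checked, since no annotation of hg19 or mm10 was used here, and for the mouse no gene table was used at all. The members numbered 74 of the 19164 peaks deposited, 26 of 2775 in the SPDEF list, 8 of 10670 in the GATA6 list and 40 of 5719 in the mouse Spdef list. The windows were chosen by their position, with earlier results of these lists known, so the number of peaks in them is given as a description and was not tested. Peaks were counted within fixed edges, and no member lay right at one. The member nearest to an edge in each of the SPDEF and GATA6 lists was 3.92 kb (SPDEF, 286 bp wide) and 1.71 kb (GATA6, 200 bp wide) inside the 17p13.1 window. The nearest peak outside any edge was a mouse Spdef peak of 280 bp, 5.86 kb from the 6qB2.3 window.

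The human cells were HPAF-II, an established line of this cancer, carrying HA-tagged human SPDEF. The SPDEF list comes from an antibody against the HA tag (3 libraries) and the GATA6 list from an antibody against GATA6 in the same tagged cells (3 libraries), so no list describes HPAF-II without the tagged factor. The mouse cells were FC1245, a mouse line of this cancer grown in 2D, of a strain labelled C57/Bl6, whose genotype includes Trp53LSLR172H/+ and Pdx1-Cre, carrying HA-tagged mouse Spdef (3 libraries, antibody against HA). Cre, driven by the Pdx1 promoter, switches on the mutant Trp53 allele in the pancreatic lineage. Each species is represented by 1 line. IgG libraries (1 in each line) and an H3K4me3 library (HPAF-II) are described in the labels, and peak lists of them were not analysed here. CUT&RUN sequences the fragments that a nuclease, tethered to an antibody, cuts out of chromatin. Each target has a single list for its 3 libraries, with the start and end of each peak and no height, score or depth, so no value below has a replicate error. The intervals given are 95% intervals for counting error, and they treat peaks as independent although neighbouring peaks were often close together.

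A tRNA carries an amino acid to the ribosome, and its gene is short, highly transcribed and read by RNA polymerase III through promoter elements inside the gene, the A box and the B box, which the factor TFIIIC binds. Many tRNA genes lie together in clusters of near-identical copies, and in mammals the largest cluster shares its chromosome region with replication-dependent histone genes, which RNA polymerase II reads. SPDEF is an ETS-family factor of secretory epithelia, and GATA6 a zinc-finger factor of the endoderm that marks the classical subtype of this cancer. Neither is part of the RNA polymerase III machinery.

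RefSeq's annotation of GRCh38.p14 lists 443 nuclear tRNA genes, of which 371 lie on the 7 chromosomes that carry a human window. That build differs from the peaks' build, so the table was used for names and neighbours and no peak was placed on a gene. On chromosome 6, runs of 13, 13, 18, 18, 33 and 43 tRNA genes follow each other between the histone gene H4C8 and the zinc-finger gene ZNF311, and histone genes such as H2BC11, H2AC12 and H2BC13 border several of them. On chromosome 1, a run of 31 tRNA genes between CFAP126 and FCGR3B holds 12 for glycine and 7 for leucine, along with the Fc receptor genes FCGR2A and FCGR3A and the heat shock gene HSPA6. On chromosome 5, 17 lie between BTNL9 and TRIM41, with 8 for valine. Chromosome 14 has 14 between RNASE12 and ANG, a ribonuclease gene, with 5 for tyrosine and 4 for proline. Chromosome 16 has 14 between ZNF213 and ZNF200, with 7 for proline and 5 for lysine. On chromosome 17, 3 runs of 7, 4 and 7 lie around the clock gene PER1, TMEM107 and the mitotic kinase gene AURKB. On chromosome 7, 18 of 19 tRNA genes between ZNF783 and KRABD3 are for cysteine. These regions therefore hold genes of both polymerases, and a peak in a window need not lie on a tRNA gene.

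SPDEF peaks were dense in 3 of the human windows, sparse in 2 and absent from 2. The GATA6 list had 0 to 6 peaks in each window. Over the 7 windows (3760 kb) the SPDEF list had 26 peaks, or 6.92 per Mb, beside 101 peaks in the 5 Mb on each side (1.67 per Mb). The ratio of these rates was 4.14 (95% interval 2.58 to 6.42). The GATA6 list, which is longer, had 8 peaks in the same windows, or 2.13 per Mb, beside 188 in the flanks (3.11 per Mb), a ratio of 0.684 (0.291 to 1.38). In 17p13.1 and 5q35.3 the GATA6 ratios were above 1, at 4.58 (0.110 to 28.8) and 3.75 (0.0865 to 26.4). Each of these rests on 1 peak. The 2 mouse windows (2750 kb) held 40 Spdef peaks, or 14.5 per Mb, beside 38 in the flanks (1.90 per Mb), a ratio of 7.66 (4.79 to 12.3). Both pooled SPDEF ratios rest on windows that differ. Without the 6p22 window the human SPDEF ratio was 9.18 (5.12 to 15.5), and the mouse ratio was 50.4 for 6qB2.3 but 2.18 for chromosome 13.

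**Figure D1:**
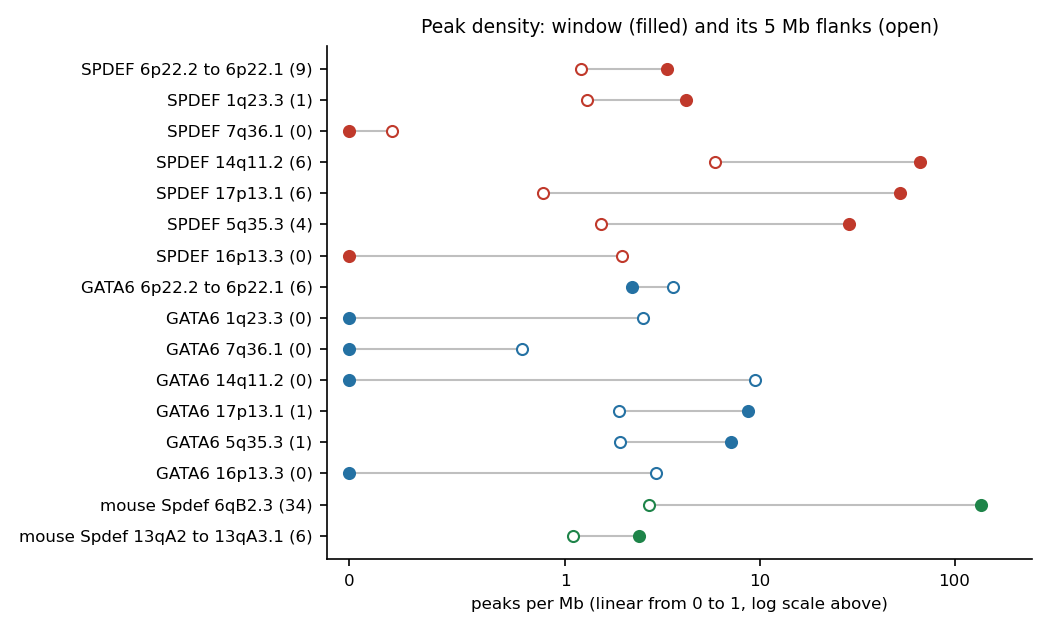
Peaks per Mb (x axis, linear up to 1 and logarithmic above) in each window (filled) and in the 5 Mb on each side of it (open), with the number of window peaks in brackets; the points carry no replicate error. The SPDEF windows 14q11.2, 17p13.1 and 5q35.3 and the mouse window 6qB2.3 lie far to the right of their flanks. GATA6 is at 0 in 4 of 7 windows, where flanking rates predict 0.132 to 0.849 peaks.

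Set against the length of each list, the windows held 0.937% of SPDEF peaks (95% Wilson interval 0.640 to 1.37) and 0.0750% of GATA6 peaks (0.0380 to 0.148), on 0.121% of the chromosomes' length. The corresponding mouse share was 0.700% (0.514 to 0.951) on 0.101% of the length. Counted as places, 20 of 377 bins of 10 kb in the human windows held an SPDEF midpoint (5.31%), against 0.747% of all 10 kb bins of the genome. For GATA6 8 of 377 did (2.12%), against 2.82%, a share near the background. For mouse Spdef 16 of 275 did (5.82%), against 1.81%. Without the largest window of each species the shares were 11.3% (12 of 106) for SPDEF, 1.89% (2 of 106) for GATA6 and 44.0% (11 of 25) for mouse Spdef. The rule chose these windows, so nothing beyond the description is read from these shares.

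The human window with the highest SPDEF density was 14q11.2 (chromosome 14, 21070 to 21160 kb). It held 6 SPDEF peaks, or 66.7 per Mb, beside 5.86 per Mb in its flanks, a ratio of 11.4 (3.95 to 27.0). It held no GATA6 peak. Its flanks had the highest GATA6 rate of the 7, 9.43 per Mb. That rate predicts 0.849 GATA6 peaks in the window, so this absence cannot be read as a difference. Of the 6 SPDEF peaks, 4 formed a run of 3565 bp (21149542 to 21153106) with gaps of 208, 248 and 361 bp. Their widths from left to right were 235, 1327, 476 and 710 bp. The second of them (21149985 to 21151311) ranked 17th by width among the SPDEF peaks of the numbered and sex chromosomes. The other 2 peaks stood apart, at 21082110 to 21082574 (465 bp) and 21093155 to 21093402 (248 bp). The nearest GATA6 peaks lay 21915 to 92447 bp away, beyond the window. Of 34386 tiles of 90 kb across the genome, 17 (0.0494%) held 6 or more SPDEF peaks. This share, and those of tiles given below, are descriptions and not tests, since the windows were chosen with earlier results known.

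In 17p13.1 (chromosome 17, 8020 to 8135 kb) the SPDEF list had 6 peaks, or 52.2 per Mb, beside 0.900 per Mb in the flanks, a ratio of 58.0 (16.98 to 182). Again 4 of them formed a run, of 1442 bp (8124552 to 8125993), with gaps of 377, 67 and 203 bp. From left to right these 4 were 119, 235, 148 and 293 bp wide, and the list median was 268 bp. The others were at 8023783 to 8024068 (286 bp) and 8093226 to 8093523 (298 bp). The single GATA6 peak (8021606 to 8021805, 200 bp) lay 1977 bp from the first of these and did not overlap it. All 9 SPDEF peaks of the flanks lay on the side of lower coordinates, 14 GATA6 peaks lay on that side and 5 on the other. Tiles of 115 kb with 6 or more SPDEF peaks numbered 18 of 26906 (0.0669%). When SPDEF peaks with gaps of up to 1 kb were joined, they made 3 places in 17p13.1 and 3 in 14q11.2, so the ratios of both windows count neighbouring peaks of a run separately.

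In 5q35.3 (chromosome 5, 180520 to 180660 kb) 4 SPDEF peaks gave 28.6 per Mb beside 1.52 in the flanks, a ratio of 18.8 (4.14 to 70.1). Tiles of 140 kb with 4 or more SPDEF peaks numbered 82 of 22102 (0.371%). This window holds the overlap of the 2 factors. The SPDEF peak at 180650238 to 180650625 (388 bp) covered a whole GATA6 peak of 224 bp (180650298 to 180650521). Its SPDEF neighbour (180649549 to 180649971, 423 bp) ended 326 bp before that GATA6 peak. The other 2 SPDEF peaks, of 176 bp (180616112 to 180616287) and 532 bp (180634030 to 180634561), were 34010 and 15736 bp from it. The flanks are short here, 5255 kb in all, because the window lies at the end of the chromosome.

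The window of 6p22 (6p22.2 to 6p22.1, chromosome 6, 26250 to 28960 kb) is the largest. It held 9 SPDEF peaks, or 3.32 per Mb, beside 1.20 in the flanks, a ratio of 2.77 (1.03 to 7.16). Of 1129 tiles of its length, 80 (7.09%) held 9 or more SPDEF peaks. Its 6 GATA6 peaks gave 2.21 per Mb beside 3.60, a ratio of 0.615 (0.212 to 1.47). All 12 SPDEF peaks of the flanks lay on the side of higher coordinates. The 9 SPDEF peaks were scattered and the closest pair (26553978 to 26554138 and 26555195 to 26555403) had a gap of 1056 bp, while the other gaps ran from 17742 to 1442953 bp. The 3 widest were 28908169 to 28908677 (509 bp), 27219067 to 27219499 (433 bp) and 27446779 to 27447181 (403 bp). The 3 widest GATA6 peaks were 26295955 to 26296672 (718 bp), 28303435 to 28303909 (475 bp) and, equal at 208 bp, 26322483 to 26322690 and 26474204 to 26474411. None of these 9 overlapped a GATA6 peak, the closest pairs being 8572 and 9834 bp apart.

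The remaining human windows had 1 peak among them. In 1q23.3 (chromosome 1, 161360 to 161600 kb) a single SPDEF peak of 419 bp lay at 161368953 to 161369371, near the left edge, 16588 bp from the nearest GATA6 peak. The ratio to the flanks was 3.21 with an interval of 0.0754 to 21.3. No peak of either list lay in 7q36.1 (chromosome 7, 149000 to 149420 kb) or in 16p13.3 (chromosome 16, 3200 to 3245 kb). Flanking rates predict 0.084 and 0.0878 SPDEF peaks there, so an absence there cannot be read as a difference. The 16p13.3 window is 45 kb long, and its flanks had 1.95 SPDEF peaks per Mb. The flanks of 7q36.1 held 2 SPDEF and 8 GATA6 peaks in 10000 kb.

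**Figure D2:**
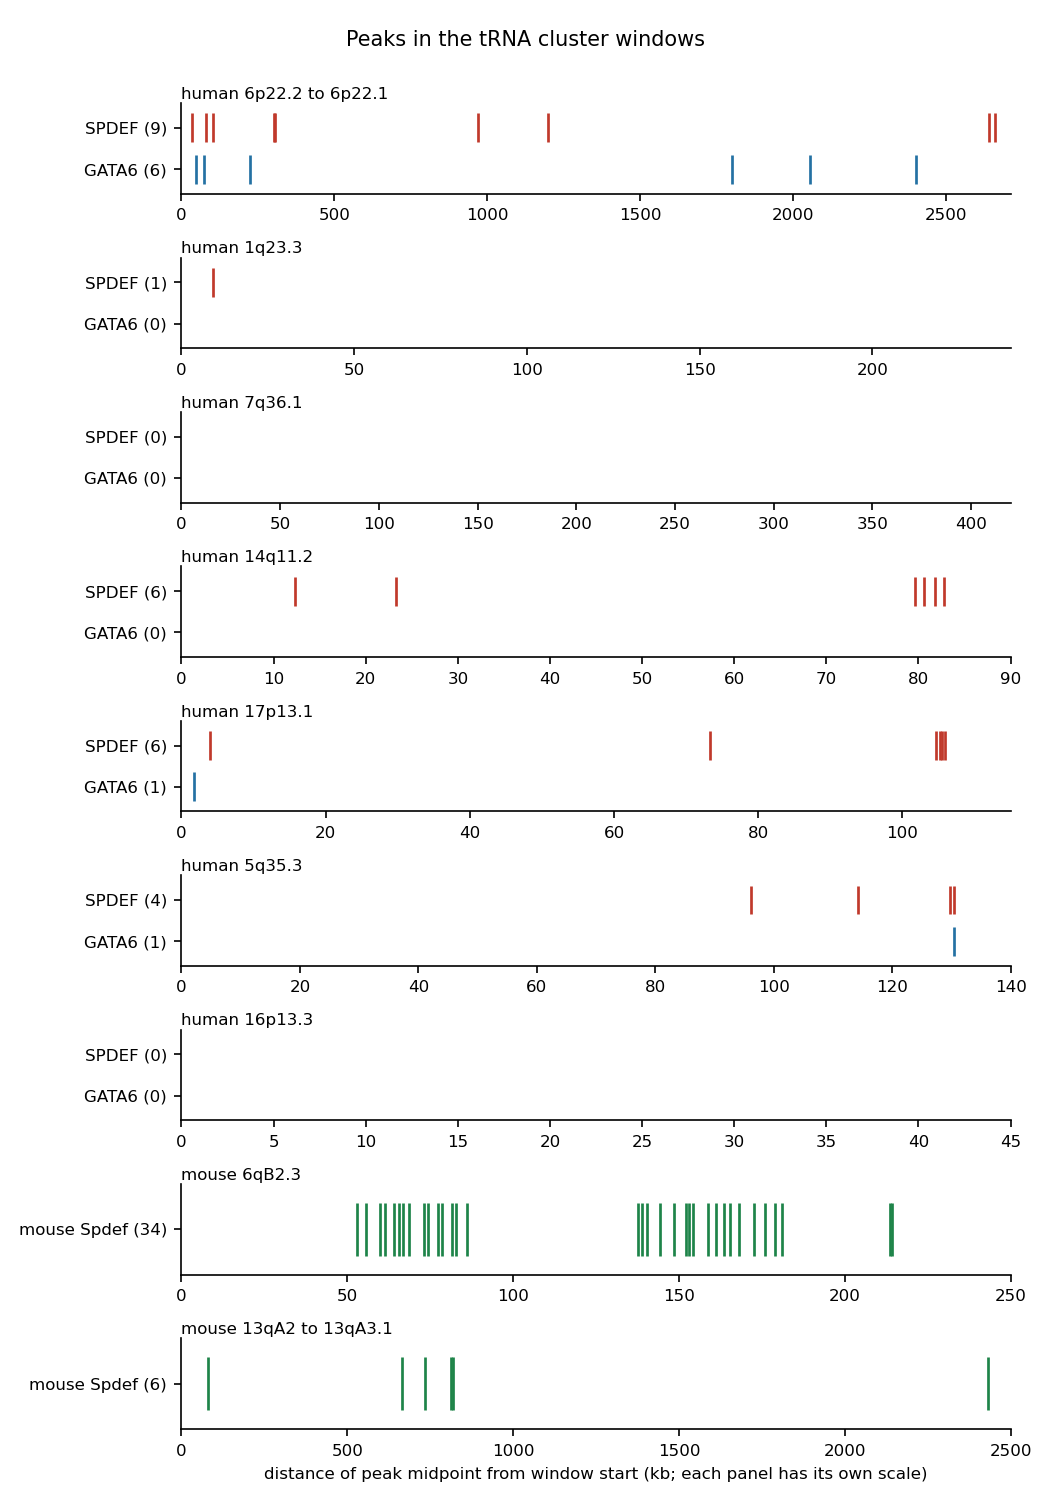
Position of each peak midpoint from the start of its window (x axis in kb, a separate scale for each panel) for SPDEF and GATA6 in the human windows and Spdef in the mouse windows, with the number of peaks in brackets. SPDEF peaks bunch at the right end of 14q11.2 and 17p13.1, and the mouse 6qB2.3 peaks fall into 2 dense blocks and a pair.

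SPDEF peaks in the tRNA windows were rarely on a GATA6 peak, counted where at least 1 bp was shared. The rule compares the numbers of SPDEF and GATA6 peaks in the windows, and these numbers bound the overlap. With 8 GATA6 peaks in the windows, and 0 in 14q11.2 and 1q23.3, few of the SPDEF members could overlap one, so the shares below largely restate the difference in density and are given as a description. In the windows 1 of 26 SPDEF peaks shared bases with a GATA6 peak (3.85%, 95% Wilson interval 0.682 to 18.9), against 64.7% over the whole list (1795 of 2774). In the flanks of the same windows the share was 53.5% (54 of 101, 43.8 to 62.9). Close to the windows, within 0.5 Mb, it was 57.1% (16 of 28, 39.1 to 73.5), and from 0.5 to 5 Mb 52.1% (38 of 73, 40.8 to 63.1). The share within 0.5 Mb rests on the surroundings of 14q11.2 (7 of 9) and 16p13.3 (6 of 10), a window without an SPDEF peak. It was 2 of 5 beside 1q23.3, 1 of 2 beside 17p13.1 and 0 of 2 beside 5q35.3, and 6p22 had 0 SPDEF peaks that close. With 1 list per factor the difference could not be tested against replicates, and the closely spaced SPDEF peaks of 14q11.2 and 17p13.1 are not independent of each other. Of the GATA6 peaks in the windows, 1 of 8 overlapped an SPDEF peak (12.5%, 2.24 to 47.1), beside 16.1% over the list, and 8 peaks are too few for a comparison.

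**Figure D3:**
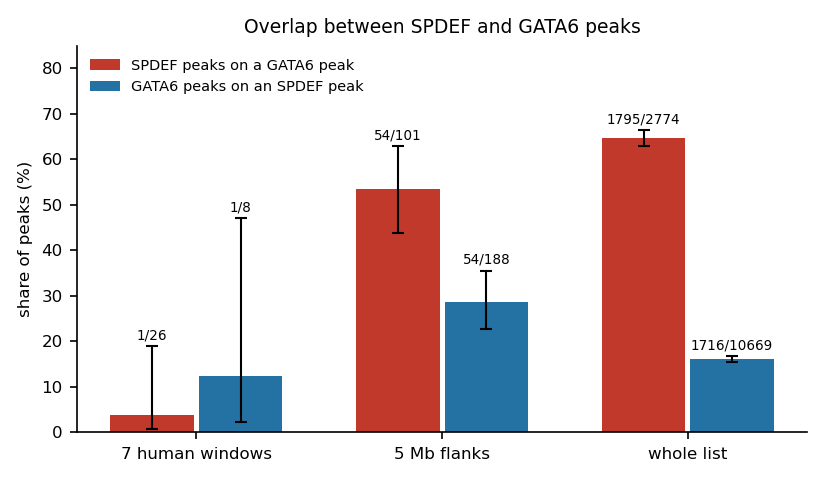
Share of SPDEF peaks on a GATA6 peak (red) and of GATA6 peaks on an SPDEF peak (blue) in the 7 human windows, in their 5 Mb flanks and in the whole lists; bars start at 0, error bars are 95% Wilson intervals and the numbers are peaks overlapping out of all. The SPDEF share is 3.85% in the windows, 53.5% in the flanks and 64.7% in the list.

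Distances to the nearest GATA6 peak follow from the same positions. The median SPDEF peak of the windows was 52715 bp from the nearest GATA6 peak, while more than 50% of SPDEF peaks in the flanks and in the list overlapped one, so that their medians were 0 bp. Within 10 kb of a GATA6 peak lay 5 of 26 window peaks (19.2%), against 66 of 101 flank peaks (65.3%) and 77.6% of the list. Farther than 100 kb lay 4 of 26 window peaks (15.4%), beside 9.90% of flank peaks and 9.41% of the list. These 4 were in 6p22. The windows held 25 of the 979 SPDEF peaks without an overlapping GATA6 peak (2.55%, 1.74 to 3.74). Of the 622 with none within 10 kb they held 21 (3.38%, 2.22 to 5.11). Of all SPDEF peaks they held 0.937%, on 0.121% of the length. The same counts can be written as a balance of the lists. SPDEF peaks made up 76.5% of the peaks of both lists in the windows (26 of 34, Wilson interval 60 to 87.6), 34.9% in the flanks (29.7 to 40.6) and 20.6% in the whole lists. In 14q11.2, 17p13.1 and 5q35.3 the numbers of SPDEF and GATA6 peaks were 6 and 0, 6 and 1, and 4 and 1, and in their flanks 41 and 66, 9 and 19, and 8 and 10.

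SPDEF peaks of the windows were about as wide as those of the list. The SPDEF members had a median width of 292.5 bp (quartiles 215.5 and 430.5), against 268 bp (208 and 391) for the list, and ranged from 119 to 1327 bp. Of the 26, 15 were wider than the list median and 10 wider than its upper quartile. The 8 GATA6 members had a median of 208 bp against 346 bp for their list, and 2 of the 8 were wider than the list median. The narrowest, of 44 bp, lay in 6p22 at 28048060 to 28048103.

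The mouse window 6qB2.3 (chromosome 6, 47600 to 47850 kb) was the densest of all those examined. It corresponds, as background, to the cysteine tRNA region of human 7q36.1, beside the gene of the histone methyltransferase EZH2. It held 34 Spdef peaks, or 136 per Mb, beside 27 peaks in 10000 kb of flank (2.70 per Mb), a ratio of 50.4 (29.5 to 86.8). Of 10890 tiles of 250 kb across the mouse genome, on a grid not fitted to the window, the fullest held 21 peaks and touched the window. The fullest that did not touch it held 14 peaks. Peaks covered 30218 bp, or 12.1%, of the window. In the human 7q36.1 window the SPDEF list had 0 peaks. The lists come from different lines and builds, and their depths are unknown, so the contrast is given side by side and was not tested.

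The 34 peaks lay in 2 blocks and a pair. The first block (47652431 to 47686491, 34.1 kb) held 15 peaks that covered 39.2% of it. The second block (47737306 to 47781326, 44.0 kb), 50.8 kb farther on, held 17 peaks that covered 36.8%. The pair (47813345 to 47813668 and 47813996 to 47814341, 324 and 346 bp) lay 32.0 kb beyond that. Gaps between neighbouring peaks had a median of 1244 bp in the first block (277 to 3330) and 1920 bp in the second (266 to 3485). With gaps of up to 1 kb joined, the 34 peaks made 21 places, and no place of the whole mouse list held more than the 4 peaks of 47663471 to 47669139. With gaps of up to 5 kb joined, they made 3 places, and the second block, with 17 peaks, was the largest place of the list by number of peaks.

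The wide peaks of the first block were evenly spaced. The block held 8 peaks wider than 1 kb, with 1 or 2 narrower ones between most of them. The midpoints of the 8 wide peaks followed each other at steps of 4238, 4284, 4359, 4472, 4312, 4340 and 4316 bp. The mean step was 4332 bp with an SD of 73.1 bp over 7 steps. Such a narrower peak followed 1099 to 1400 bp after the wide one, midpoint to midpoint, for 5 of the 8 wide peaks, namely at 1335, 1400, 1244, 1204 and 1099 bp. The second block was less regular. Its 7 wide peaks stepped by 4014, 4294, 4484, 5552, 5040 and 8960 bp, with a median of 4762 bp. When peaks over 900 bp were counted as wide, a peak of 939 bp filled the longest step, and the 7 steps ran from 4014 to 5552 bp with a median of 4484 bp. The width of 1 kb and the steps were chosen for description after the values were seen. Whether reads that fit several near-identical copies were kept, and where they were placed, is not stated in the labels or processing notes, and their part in this pattern was not tested.

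**Figure D4:**
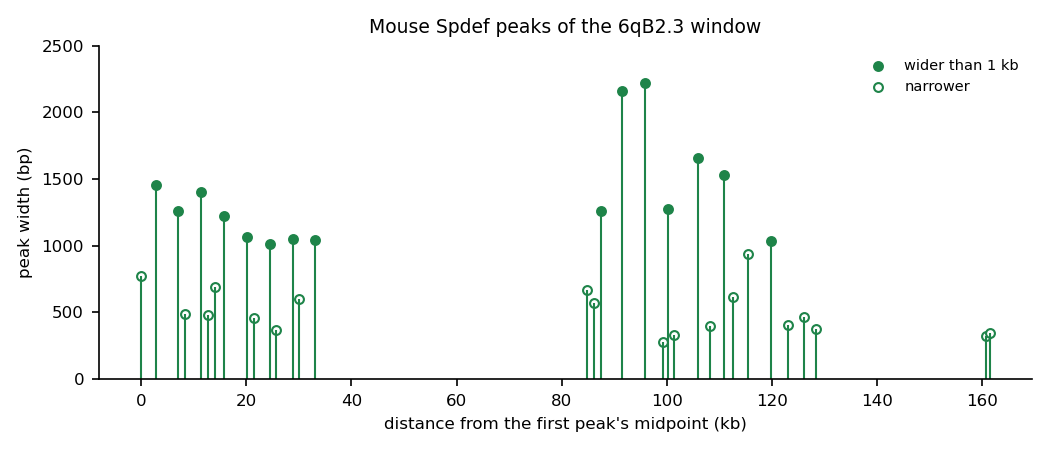
Width of each mouse Spdef peak of the 6qB2.3 window in bp (y axis, from 0) against the distance of its midpoint from the first peak's in kb (x axis); filled points are wider than 1 kb. In the first block the 8 filled points recur every 4238 to 4472 bp. The second block is less regular. It holds the widest peaks (up to 2219 bp), but its median width is lower, 666 bp against 1010 bp.

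The peaks of 6qB2.3 were wide. Their median was 732.5 bp (quartiles 461.2 and 1249), against 436 bp (292 and 728) for the mouse list, and 26 of 34 were wider than the list median and 17 wider than its upper quartile. The 3 widest lay in the second block, at 47747495 to 47749713 (2219 bp), 47743232 to 47745388 (2157 bp) and 47757811 to 47759468 (1658 bp), and ranked 33rd, 40th and 118th of 5717. In the first block the widest was 1456 bp (47654920 to 47656375) and the narrowest 369 bp.

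The second mouse window (13qA2 to 13qA3.1, chromosome 13, 21100 to 23600 kb) corresponds, as background, to human 6p22 and also holds histone genes. It had 6 Spdef peaks, or 2.4 per Mb, beside 1.10 in the flanks, a ratio of 2.18 (0.662 to 6.44), whose interval includes 1. The widest was 21913460 to 21914602 (1143 bp), followed by 21179642 to 21180163 (522 bp) and 21918707 to 21919135 (429 bp). The widest and the third widest were 4104 bp apart, and the other gaps ran from 69543 to 1611387 bp. Of its 6 peaks, 2 were wider than the list median. Its density was close to the 2.10 peaks per Mb of the whole mouse list, and 387 of 1079 tiles of its length (35.9%) held 6 or more peaks, so its count is near the background.

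Peaks were more frequent close to the human windows than farther out. Within 0.5 Mb of the human windows SPDEF peaks stood at 4.15 per Mb (28 peaks), against 1.23, 1.39 and 1.37 per Mb at 0.5 to 1, 1 to 2 and 2 to 5 Mb. Of these 28, 10 lay beside 16p13.3, whose window itself had 0, 9 beside 14q11.2 and 5 beside 1q23.3. GATA6 peaks were also more frequent within 0.5 Mb, at 6.51 per Mb (44 peaks), against 2.43 to 3.39 farther out. With flanks of 1 Mb the SPDEF ratio over the 7 windows was therefore 2.55 (1.48 to 4.33). The GATA6 ratio was 0.462 (0.191 to 0.970) with flanks of 1 Mb and 0.531 (0.224 to 1.09) with flanks of 2 Mb. The mouse flanks had 2 peaks within 0.5 Mb, both beside 6qB2.3.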

How the data were processed

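Per the submitters' processing notes, Bowtie2 2.4.4, SAMtools 1.14, MACS2 2.2.7.1, deepTools and the builds hg19 and mm10 were used; roles, control, threshold, excluded regions and any pooling of replicates are not stated there. The 3 deposited lists give chromosome, start and end, and no other value; depth is unknown. Each list was assigned to its target by its name, and 0 peaks ended past an hg19 or mm10 chromosome. Positions are printed counting from 1. Peaks on the mitochondrial genome and on 1 unplaced mouse sequence (4 in all) were left out of rates and shares.

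A peak belonged to a window when its midpoint did. Flanks were the 5 Mb on each side, cut at chromosome ends and without centromere bands (circlize 0.4.16, R 4.3.3). Tiles had the length of a window and were laid end to end from the start of each chromosome, without fitting them to peaks. Tiles over the window itself were kept unless stated. Rate ratios carry exact conditional 95% intervals and shares Wilson intervals, for counting error only. No test was made: a list has no replicate values, and peaks are not replicates. The members, windows and lists were chosen with earlier results of these data known. Peaks were named by a fixed rule: the 3 widest of each window and list, all where a window held at most 5, runs of 4 or more, and SPDEF peaks of the smaller human windows. The mouse pair, the peaks of other runs and the 44 bp peak were named after their values were seen. Counting ran in Python 3.11.15 with pandas 2.3.3, numpy 2.4.6, scipy 1.17.1 and matplotlib 3.10.9 and was tested on simulated data. The planned count of motif letters in peaks was not made, because no genome of these builds was used here. A further part of the mouse line's genotype is not reported here.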

Additional observations from a re-analysis of the deposited data

How the results depend on the processing

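No paired analysis was possible because the 3 libraries behind a list carry no separate values; for the same reason no replicate could be left out, and each window was left out in turn instead. Of 73 alternatives, 56 left the value within its counting interval (for counts, within 1.5 times), 17 moved it and 0 moved a ratio to the other side of 1. The median steps between wide mouse peaks were instead taken as unmoved when they changed by less than the SD of the steps. In the second block that SD was 1833 bp, a wide margin. The SPDEF ratio of window to flank moved to 2.55 with flanks of 1 Mb and to 9.18 without 6p22. With peaks joined over gaps of at most 1 kb it was 3.39 (1.95 to 5.61). The mouse ratio moved to 14.55 with the wider 50% of the list, 12.65 by bases covered, 2.18 without 6qB2.3 and 50.4 without chromosome 13, so the pooled mouse ratio rests on 6qB2.3. The share of the list in the windows moved to 0.0375% (GATA6) and 0.980% (mouse) with the wider 50%. Without 6p22 it moved to 0.0188% (GATA6) and 0.613% (SPDEF), on 0.0339% of the chromosomes' length in place of 0.121%. The share of SPDEF peaks on GATA6 was 0% with the wider 50% of both lists (52.1% over the list) 7.69% for midpoints within 1 kb (70.0%), and 3.85% with at least 50% of both peaks covered, where the share over the list fell to 31.1% (862 of 2774). By construction the share of bins moved with bin size. At 5 kb it was 1.06% for GATA6 (1.495% of all bins of the genome) and 2.93% for SPDEF (0.389%). At 50 kb it was 10.3% for GATA6 (11.5% of the genome), 20.5% for SPDEF (3.43%) and 16.4% for the mouse (7.68%). Joining over 5000 bp left 8 mouse places in place of 27. Without peak heights, a stricter threshold could be set by width only.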
